A study of Rattus norvegicus with 129 samples.

Results

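The 10 genes described here belong to the circadian clock of the liver: the activators Bmal1, Clock and Npas2, the repressors Per1, Per2 and Per3, the nuclear receptors Nr1d1 and Nr1d2, and the output factors Dbp and Tef. They were taken as every probe set that the platform annotation gives to 1 of these genes alone, out of 14372 genes named in the series. The smallest array type held 6 of the 10 genes on 9 probe sets (Bmal1, Dbp, Nr1d1, Nr1d2, Per2 and Tef). The largest held all 10 on 19 probe sets, and the one of middle size held 9 on 13 probe sets, without Npas2. Where a gene had several probe sets, its values come from the brightest of them on average in that study.

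The series holds 129 arrays of rat liver RNA, 1 rat each, in 31 groups of 5 studies, assembled to ask about genes under the receptors CAR and PXR in livers exposed to perfluoroalkyl acids. Male and female Sprague-Dawley rats received phenobarbital at 100 mg/kg, PCN at 100 mg/kg or vehicle (0.5% methylcellulose with 1% Tween 80) by gavage, in 18 groups of 5. Phenobarbital is an activator of CAR and PCN one of rat PXR, and both drugs were set against the same vehicle rats. Livers were taken at 6 h or 24 h from rats dosed once, and at 24 h after the last dose from rats dosed on 5 days. Female Sprague-Dawley rats 4 weeks old ate a diet with D3T at 600 mg/kg or control diet (4 each). D3T, a dithiolethione, activates the stress factor NRF2. Female Sprague-Dawley rats 60 days old were given PFOS at 5 mg/kg or 0.5% Tween-20 daily for 3 weeks (2 each). Male Sprague-Dawley rats 10 weeks old were given PFOA at 20 mg/kg/day, PFOS at 10 mg/kg/day or 15% Alkamuls (3 each), for a duration that the labels leave out. Male Wistar Hanover rats were given Wy-14643, an agonist of PPARα, at 60 mg/kg/day or carboxymethyl cellulose for 1, 3 or 7 days (3 each). For rat 06, given Wy-14643, the dose is missing from the label. That last study alone states when rats were killed, within 1 period of the morning after the last dose. For the other studies the labels give no hour of dosing or killing, so in the phenobarbital and PCN study the time after a dose and the hour of the day cannot be told apart. Nor do the labels of these studies state that treated and control rats were killed at the same hour. Treatment and hour of killing therefore cannot be told apart in them.

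In the mammalian clock, BMAL1 pairs with CLOCK or NPAS2, binds E-box sequences and raises transcription of the Per, Nr1d1, Nr1d2, Dbp and Tef genes. PER proteins then repress that pair, and the receptors encoded by Nr1d1 and Nr1d2 (REV-ERB alpha and beta) repress Bmal1, Clock and Npas2 through sites known as ROREs. DBP and TEF bind D-box sequences, among them sites in Per genes, and in rodent liver the messenger of Dbp is known for one of the widest daily swings of any gene.

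Promoter windows of 300 bases, from 250 before to 50 after an annotated start, were read from RefSeq (rat build GRCr8) for all 10 genes, in 12 windows. They were searched on both strands for the E-box CACGTG, the related CACGTT, the D-boxes TTATGTAA and TTACGTAA, and the RORE cores TAGGTCA and TGGGTCA. The 4 windows below are shown because each holds one of the sequences through which these genes are known to act on each other. Capitals mark the match, read in the direction of the gene, so a match on the opposite strand appears as its reverse complement.
Bmal1: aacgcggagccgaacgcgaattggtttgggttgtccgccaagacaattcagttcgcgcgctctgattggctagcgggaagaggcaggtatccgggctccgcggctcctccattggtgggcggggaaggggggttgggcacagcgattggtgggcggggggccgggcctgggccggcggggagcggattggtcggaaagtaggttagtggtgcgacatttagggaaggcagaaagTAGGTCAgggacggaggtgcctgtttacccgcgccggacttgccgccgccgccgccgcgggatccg
Per2: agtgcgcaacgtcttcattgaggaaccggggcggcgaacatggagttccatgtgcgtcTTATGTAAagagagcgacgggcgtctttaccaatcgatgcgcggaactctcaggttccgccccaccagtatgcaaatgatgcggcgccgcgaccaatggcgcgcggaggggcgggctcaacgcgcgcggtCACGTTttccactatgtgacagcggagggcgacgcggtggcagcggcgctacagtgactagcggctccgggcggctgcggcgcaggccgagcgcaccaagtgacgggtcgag
Nr1d1: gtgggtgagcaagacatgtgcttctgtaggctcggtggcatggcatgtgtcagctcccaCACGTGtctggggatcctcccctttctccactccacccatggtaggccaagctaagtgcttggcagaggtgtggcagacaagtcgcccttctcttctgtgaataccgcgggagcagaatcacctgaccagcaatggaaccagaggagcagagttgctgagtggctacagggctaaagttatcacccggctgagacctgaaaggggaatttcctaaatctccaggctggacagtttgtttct
Tef: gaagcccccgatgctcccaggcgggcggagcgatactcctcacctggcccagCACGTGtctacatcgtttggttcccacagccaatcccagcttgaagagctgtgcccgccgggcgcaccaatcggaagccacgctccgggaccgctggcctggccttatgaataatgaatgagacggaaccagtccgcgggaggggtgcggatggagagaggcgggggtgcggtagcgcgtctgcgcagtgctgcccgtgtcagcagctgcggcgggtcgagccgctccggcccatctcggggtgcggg
The Bmal1 window (chr1:176766078-176766377, plus strand) holds TAGGTCA at position -16, the core that NR1D1 and NR1D2 bind. Of 33469 such windows 2.63% hold that core. The Per2 window (chr9:99496944-99497243, minus strand) holds the D-box TTATGTAA at -192 and CACGTT at -62, found in 0.893% and 4.83% of windows. Nr1d1 (chr10:84229405-84229704, minus strand) has CACGTG at -191, and Tef (chr7:115206577-115206876, plus strand) has it at -198, a sequence in 6.42% of windows. A second Nr1d1 start has CACGTT at -174. The other windows, those of Dbp, Per1, Per3, Npas2, Clock and Nr1d2, hold none of these 6 strings. TTACGTAA and TGGGTCA, which matched no window of these genes, lie in 0.12% and 4.09% of all windows.

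All values are log2(intensity + 16), with negative intensities set to 0, so that a floor lies at 4.00 and a difference between low values is understated. Differences are log2 differences of group means from limma with their SE, and a gene passed where the Benjamini-Hochberg adjusted p over every probe set tested on that array was under 0.05. Hepatocyte markers stood at the top of every array type, with Alb at 12.94 or above on each array. In the phenobarbital and PCN study the stellate cell gene Des and the lymphocyte gene Cd3d were at the floor on all 89 arrays, while other markers of those cells were measured, with medians of 9.16 for Reln and 8.74 for Col3a1 (stellate) and 6.66 for Ptprc (lymphocyte). The macrophage gene Clec4f had a median of 9.52. The array of vehicle rat 1003 (male, 6 h) held 3730 probe sets (42.4%) displaced by 1 row, 7 of the 9 clock probe sets among them, and was left out, so the male vehicle group at 6 h has 4 rats. Deposited mean intensity per array was 93.3 to 613.7. In bulk liver RNA, fewer cells of a type and less RNA per cell cannot be told apart.

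In vehicle-treated males, Dbp and Per2 were lower at 24 h than at 6 h, and Bmal1 was above its floor only at 24 h. Dbp read 5.85, 4.00, 6.82, 4.00 and 9.23 at 24 h, against 10.47, 10.33, 10.56 and 9.75 at 6 h. Every rat at 24 h was below every rat at 6 h, and those at 24 h ran from the floor to values near the 6 h range. Dbp fell by 4.30 ± 0.95 (SE, adjusted p = 0.012). Its other probe set, J03179_at, fell by 3.53 ± 0.74 (SE, adjusted p = 0.00695). Per2 read 4.27, 4.23, 5.63, 4.00 and 5.42 at 24 h, against 7.51, 6.82, 6.18 and 5.75 at 6 h. The groups did not overlap, and Per2 fell by 1.86 ± 0.45 (SE, adjusted p = 0.0317). Bmal1 read 6.04, 6.59, 5.58, 5.96 and 4.82 at 24 h, against 4.00 in all 4 rats at 6 h. It was higher in 5 of 5 rats, yet its difference of 1.80 ± 0.49 (SE, adjusted p = 0.0805) missed the threshold. Nr1d2, the second REV-ERB gene, averaged 6.88 ± 0.24 at 24 h and 7.81 ± 0.13 at 6 h (SD, n = 5 and 4), a difference of -0.93 ± 0.28 (SE, adjusted p = 0.153). Nr1d1 and Tef differed by -0.37 ± 0.29 and -0.10 ± 0.14 and did not pass.

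Of the 6 clock genes 2 passed in that comparison, both lower, where 0.4% of all probe sets passed (35 of 8740) and 0.229% were lower. The median clock gene differed by -0.65, and the median of all probe sets was 0.00. The Dbp call was lost with a pseudocount of 1 (-6.02, adjusted p = 0.0532) and with only the groups compared in the fit (-4.30, adjusted p = 0.414), and without any 1 of rats 1007 and 1009 (-3.81 to -3.80, adjusted p = 0.0697 to 0.0793). That of Per2 was lost with a pseudocount of 1 (-3.50, adjusted p = 0.16) and with only the groups compared in the fit (-1.86, adjusted p = 0.476), and without any 1 of rats 1001, 1002, 1006, 1007 and 1009 (-1.77 to -1.54, adjusted p = 0.0956 to 0.271). Bmal1 passed with a pseudocount of 1 (5.27, adjusted p = 0.00839) and without rat 1010 (2.04, adjusted p = 0.0369).

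In vehicle-treated females, Per2 was lower at 24 h by more than in any other comparison of the study, Nr1d1 was higher, and Dbp was high at both times. Per2 read 4.32, 6.44, 4.77, 5.70 and 4.96 at 24 h, against 8.16, 8.44, 7.81, 8.38 and 7.82 at 6 h. The highest rat at 24 h was below the lowest at 6 h, and Per2 fell by 2.88 ± 0.42 (SE, adjusted p = 8.78e-07). Nr1d1 read 8.79, 8.86, 8.33, 8.92 and 8.43 at 24 h, against 7.58, 7.65, 7.27, 7.74 and 8.14 at 6 h. Again no values overlapped, and Nr1d1 rose by 0.99 ± 0.27 (SE, adjusted p = 0.0202). Its other probe set, M25804_at, rose by 1.72 ± 0.41 (SE, adjusted p = 0.00488). Dbp read 9.19, 10.32, 8.62, 10.50 and 9.83 at 24 h, against 9.62, 9.09, 9.49, 9.76 and 10.22 at 6 h. The groups overlapped, with a difference of 0.06 ± 0.89 and a 95% interval of -1.72 to 1.83. Bmal1 was 4.00 in all 5 females at 6 h and read 4.17, 4.03, 5.95, 4.00 and 4.00 at 24 h. A single rat, 1508, was well above the floor, and the difference of 0.43 ± 0.46 (SE, adjusted p = 0.864) did not pass. Of 6 clock genes 1 rose and 1 fell, where 3.79% of probe sets passed, 1.52% higher and 2.27% lower. The Nr1d1 call was lost without any 1 of rats 1503, 1506, 1507 and 1509 (0.89 to 0.96, adjusted p = 0.0501 to 0.0692), and that of Per2 held in every fit without 1 rat.

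The change of Dbp with time was 0.06 ± 0.89 in females and -4.30 ± 0.95 in males. The difference between these changes was 4.35 ± 1.30 (SE, adjusted p = 0.285) and did not pass. The same difference was 1.36 ± 0.40 (SE, adjusted p = 0.277) for Nr1d1, 1.24 ± 0.39 (SE, adjusted p = 0.304) for Nr1d2, -1.37 ± 0.67 (SE, adjusted p = 0.813) for Bmal1 and -1.03 ± 0.61 for Per2. No probe set passed in this test of sex and time with limma (0% of 8740), while 527 (6.03%) had an unadjusted p under 0.05, and so had 4 of the 6 clock genes.

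Genes outside the 10 moved with time in the same vehicle rats. Of 7 other clock genes measured (Bhlhe40, Bhlhe41, Hlf, Csnk1d, Csnk2a1, Timeless and Prkaa1), none passed in either sex. Por, the reductase that serves P450 enzymes and is known as a clock output, fell by 2.04 ± 0.27 in males and by 1.75 ± 0.26 in females. In females the haem synthesis enzyme Alas1 fell by 1.31 ± 0.25 and the cell cycle kinase Wee1 by 0.57 ± 0.15. The heat shock genes Hsph1 and Dnajb1 fell by 2.72 ± 0.41 and 1.24 ± 0.18 there, and the co-chaperone Fkbp4 by 0.92 ± 0.26. Igfbp1, a binding protein raised in fasting, rose by 3.68 ± 0.89. No hepatocyte, macrophage, endothelium or stellate marker passed in either sex, and the part of these other genes in the clock values was not tested.

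Vehicle rats after 5 days and after 1 dose were both killed 24 h after their last dose, and no clock gene differed between them past the threshold. In males, where 1.6% of probe sets passed, Dbp read 8.78, 6.32, 8.71, 6.16 and 4.00 after 5 days, a difference of 0.81 ± 0.89 (SE, adjusted p = 0.862). Female values were 9.52, 9.91, 6.77, 4.68 and 9.41, a difference of -1.63 ± 0.89 (SE, adjusted p = 0.741), where 0.641% passed. None of the 6 genes had an unadjusted p under 0.05 in either sex, while 11.8% of all probe sets did in males and 7.73% in females.

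**Figure D1:**
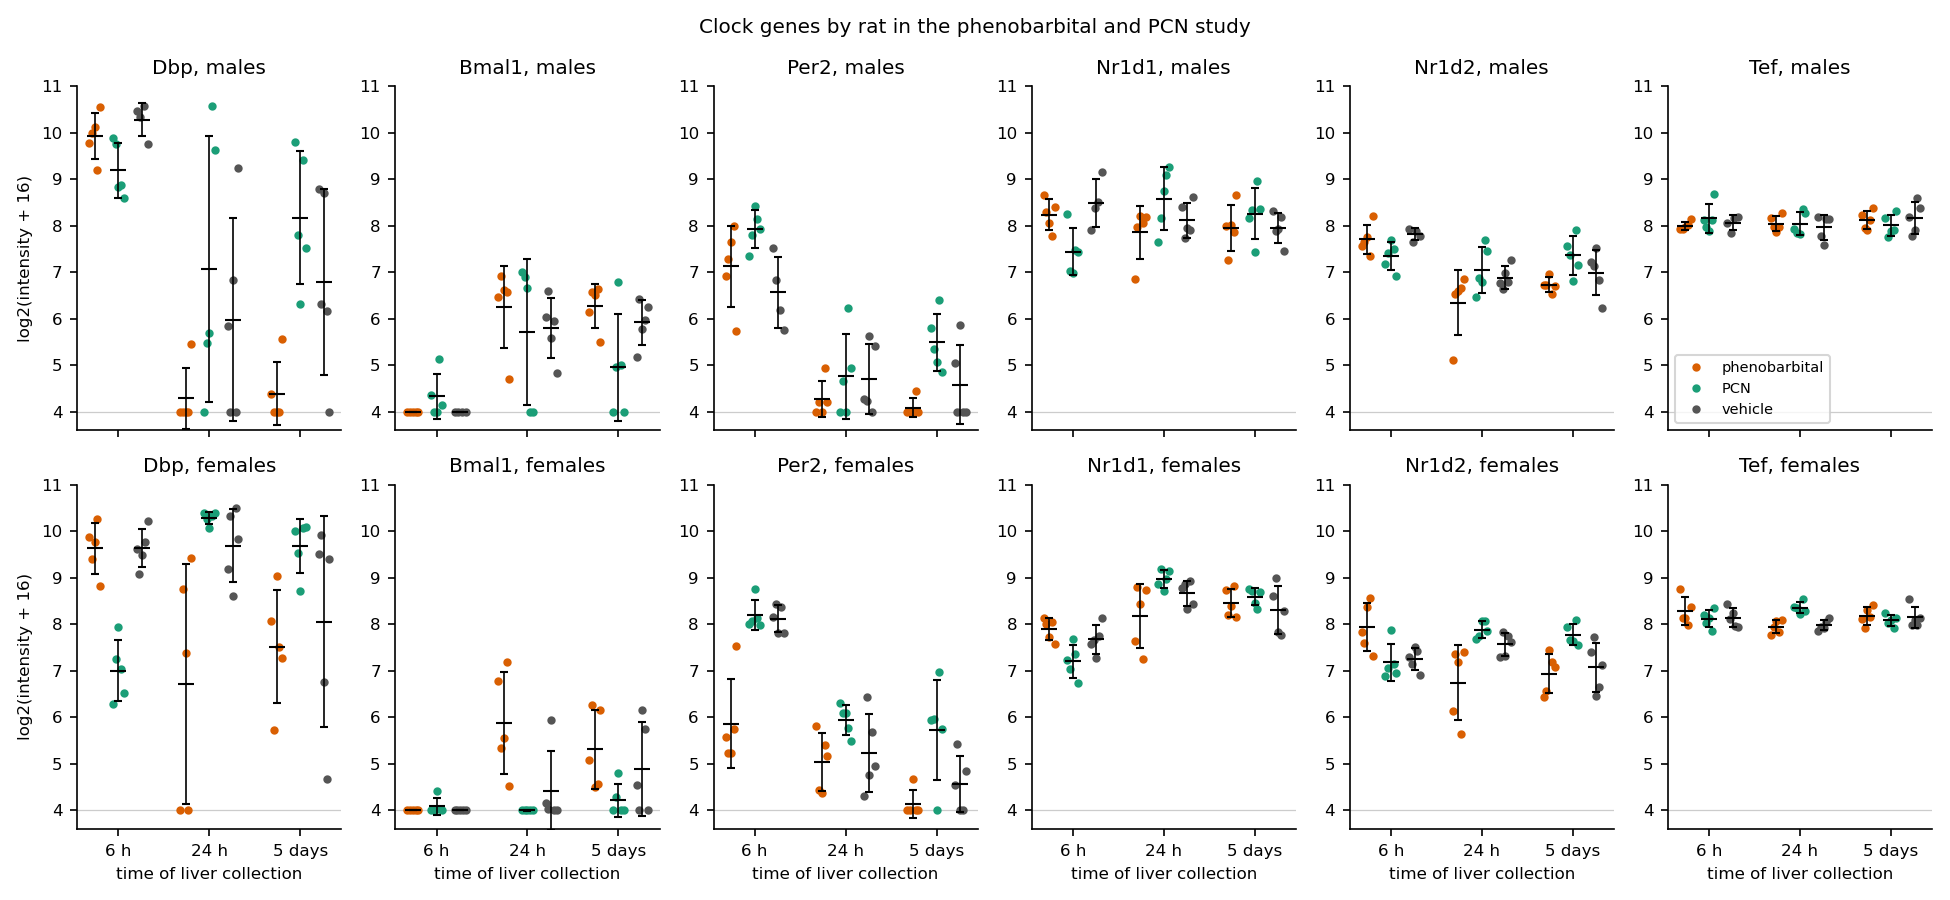
log2(intensity + 16) of the 6 clock genes in each of 89 rats (points), by time of liver collection, for phenobarbital, PCN and vehicle, males above and females below. Bars give mean and SD and the grey line the floor of 4.00. At 6 h Dbp is high except in PCN females (7.01), and Bmal1 is at most 5.14. Mean Per2 at 6 h is lowest in phenobarbital females (5.86) and vehicle males (6.56), against 7.12 to 8.19 in the other groups. The spread of Dbp within groups is widest at 24 h and 5 days.

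At 6 h with phenobarbital, Per2 was lower than with vehicle in females and 5 of the 6 clock genes did not pass. In males none of the 6 passed. Per2 in females read 5.58, 5.23, 5.24, 5.74 and 7.53 with phenobarbital, against 8.16, 8.44, 7.81, 8.38 and 7.82 with vehicle. All 5 treated rats were lower than all vehicle rats, with rat 4505 closest to them, and Per2 fell by 2.26 ± 0.42 (SE, adjusted p = 0.000158). This was 1 of 6 genes, where 2.61% of probe sets passed and 1.3% were lower. The call was lost with a pseudocount of 1 (-2.70, adjusted p = 0.182) and with only the groups compared in the fit (-2.26, adjusted p = 0.09). Nr1d2 averaged 7.94 ± 0.52 with phenobarbital and 7.26 ± 0.24 with vehicle (SD, n = 5), a difference of 0.68 ± 0.27 (SE, adjusted p = 0.217). In males Per2 read 6.93, 7.29, 7.65, 8.00 and 5.74 with phenobarbital, against 7.51, 6.82, 6.18 and 5.75 with vehicle. These overlapped, with a difference of 0.56 ± 0.45 (SE, adjusted p = 0.889). The share of all probe sets that passed in males was 0.732%. None of the 6 genes had an unadjusted p under 0.05 there, while 8.88% of all probe sets did.

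In the same females at 6 h, genes of fasting and glucocorticoid action rose with phenobarbital: Igfbp1 by 5.32 ± 0.89, the pyruvate dehydrogenase kinase Pdk4 by 4.20 ± 0.58 and the gluconeogenic enzyme Pck1 by 1.71 ± 0.34. Hsph1, Fkbp4 and Dnajb1 differed by -2.60 ± 0.41, -2.11 ± 0.26 and -1.31 ± 0.18, all lower. Their part in the Per2 difference was not tested. None of the 7 other clock genes passed.

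At 6 h with PCN, Nr1d1 was lower than with vehicle in males, and Dbp was low, but short of the threshold, in females. Male Nr1d1 read 8.24, 7.03, 6.99, 7.48 and 7.44 with PCN, against 7.91, 8.37, 8.51 and 9.15 with vehicle. Of the treated rats 4 lay below all vehicle rats and 1 within their range, and Nr1d1 fell by 1.05 ± 0.29 (SE, adjusted p = 0.0366). It was the only one of the 6 to pass, where 1.88% of probe sets did and 0.572% were lower. Its other probe set, M25804_at, at -1.39 ± 0.44 (SE, adjusted p = 0.0866), did not pass. The call was lost with median scaling (-0.99, adjusted p = 0.0614), with only the groups compared in the fit (-1.05, adjusted p = 0.32) and with rat 1003 included (-0.75, adjusted p = 0.0791), and without any 1 of rats 1002, 1004, 1005, 5002, 5003, 5004 and 5005 (-1.08 to -0.83, adjusted p = 0.0558 to 0.291). Male Per2 read 7.35, 7.80, 8.43, 8.14 and 7.92 with PCN, a difference of 1.36 ± 0.45 (SE, adjusted p = 0.109). It passed with a pseudocount of 64 (1.00, adjusted p = 0.00911) and without rat 1001 (1.68, adjusted p = 0.0483).

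Female Dbp at 6 h read 6.28, 7.24, 7.95, 7.04 and 6.52 with PCN, against 9.62, 9.09, 9.49, 9.76 and 10.22 with vehicle. The groups did not overlap, yet the difference of -2.63 ± 0.89 (SE, adjusted p = 0.125) did not pass in the fit, which pools the spread of Dbp over all 18 groups. It passed with a pseudocount of 64 (-2.24, adjusted p = 0.0351) and with only the groups compared in the fit (-2.63, adjusted p = 0.0166). Nr1d1 differed by -0.47 ± 0.27 (SE, adjusted p = 0.592), while its other probe set M25804_at fell by 1.64 ± 0.41 (SE, adjusted p = 0.0119). The probe sets of Nr1d1 differed in the call. None of the 6 genes passed on the probe set it was read from, where 2.24% of probe sets did, and 1 had an unadjusted p under 0.05. Of all probe sets 11.4% had such an unadjusted p. Alas1, which is also induced through CAR and PXR, rose by 1.48 ± 0.25 in these females and by 1.91 ± 0.27 in males.

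At 24 h after 1 dose, Dbp was lower with phenobarbital in females and at the floor in most treated males. In females Dbp read 4.00, 8.76, 7.39, 4.00 and 9.42 with phenobarbital, against 9.19, 10.32, 8.62, 10.50 and 9.83 with vehicle. Rats 4506 and 4509 were at the floor, the others within or near the vehicle range, and Dbp fell by 2.98 ± 0.89 (SE, adjusted p = 0.0361). Its other probe set J03179_at, at -2.01 ± 0.69 (SE, adjusted p = 0.0937), did not pass. The call was lost with a pseudocount of 1 (-4.59, adjusted p = 0.0537), with only the groups compared in the fit (-2.98, adjusted p = 0.288) and with rat 1003 included (-2.98, adjusted p = 0.0525), and without any 1 of rats 1507, 1509, 1510, 4506 and 4509 (-2.94 to -2.30, adjusted p = 0.0727 to 0.241). Bmal1 read 6.79, 5.34, 5.56, 7.18 and 4.54 with phenobarbital, against 4.17, 4.03, 5.95, 4.00 and 4.00 with vehicle, a difference of 1.45 ± 0.46 (SE, adjusted p = 0.0552). The rats at the floor for Dbp, 4506 and 4509, had the highest Bmal1 of the group. Nr1d2 read 6.14, 7.36, 7.19, 5.65 and 7.40 with phenobarbital, against 7.31, 7.84, 7.33, 7.75 and 7.62 with vehicle, a difference of -0.82 ± 0.27 (SE, adjusted p = 0.0621). The same rats were lowest for Nr1d2.

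Of 6 genes 1 passed in those females, where 4.04% of probe sets did and 1.73% were lower. Bmal1 passed with a pseudocount of 1 (3.76, adjusted p = 0.023) and with the lowest 33.3% of probe sets left out (1.45, adjusted p = 0.0367), and without any 1 of rats 1508, 4507 and 4510 (1.59 to 1.83, adjusted p = 0.0109 to 0.0399). Nr1d2 passed with the lowest 33.3% of probe sets left out (-0.82, adjusted p = 0.0436), and without any 1 of rats 4507, 4508 and 4510 (-0.99 to -0.93, adjusted p = 0.0222 to 0.0408). Hsph1 rose by 1.74 ± 0.41 and Pck1 fell by 1.43 ± 0.34 in the same rats, and Wee1 by 0.64 ± 0.15. Their part was not tested.

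In males at 24 h, Dbp read 4.00, 4.00, 4.00, 4.00 and 5.46 with phenobarbital, against 5.85, 4.00, 6.82, 4.00 and 9.23 with vehicle. Of 5 vehicle rats 2 were themselves at the floor, and the difference of -1.69 ± 0.89 (SE, adjusted p = 0.474) did not pass. Bmal1 averaged 6.25 ± 0.89 with phenobarbital and 5.80 ± 0.65 with vehicle (SD, n = 5), a difference of 0.45 ± 0.46 (SE, adjusted p = 0.902). None of the 6 passed, where 2.31% of probe sets did, and 1 (Nr1d2, -0.54 ± 0.27) had an unadjusted p under 0.05. Of all probe sets 11.7% had such an unadjusted p. Wee1 fell by 0.55 ± 0.15, while Por and Alas1 rose by 1.79 ± 0.26 and 1.78 ± 0.25.

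PCN at 24 h gave no passing clock gene in either sex. Male Dbp read 4.00, 5.47, 5.70, 10.58 and 9.61 and male Bmal1 7.01, 6.90, 6.67, 4.00 and 4.00, in the same order of rats. The 2 rats with Dbp near 10 were those with Bmal1 at the floor. Against vehicle, Dbp differed by 1.09 ± 0.89 (SE, adjusted p = 0.932) in males, where 0.572% of probe sets passed. In females Dbp read 10.40, 10.25, 10.06, 10.32 and 10.39 with PCN, the tightest group of the study, and differed by 0.59 ± 0.89 (SE, adjusted p = 0.891), where 3.7% passed. Female Tef, a relative of Dbp, read 8.37, 8.35, 8.23, 8.55 and 8.28 with PCN, against 7.86, 7.95, 7.93, 8.06 and 8.13 with vehicle. No values overlapped, and the difference of 0.37 ± 0.13 (SE, adjusted p = 0.109) passed with only the groups compared in the fit (0.37, adjusted p = 0.0346).

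After 5 daily doses no clock gene passed with either drug in either sex. In males given phenobarbital Dbp read 4.39, 4.00, 4.00, 4.00 and 5.56, against 8.78, 6.32, 8.71, 6.16 and 4.00 with vehicle. The difference was -2.40 ± 0.89 (SE, adjusted p = 0.108), where 4.91% of probe sets passed, and it passed without rat 1015 (-3.10, adjusted p = 0.0322). Females given phenobarbital had Dbp at 8.07, 5.73, 9.04, 7.51 and 7.27, a difference from vehicle of -0.53 ± 0.89 (SE, adjusted p = 1), where 2.47% passed. With PCN, male Dbp read 9.80, 7.79, 6.32, 9.40 and 7.52, a difference of 1.37 ± 0.89 (SE, adjusted p = 0.498), where 4.77% passed. Female Dbp read 10.00, 9.54, 8.71, 10.07 and 10.09 with PCN, a difference of 1.62 ± 0.89 (SE, adjusted p = 0.342). Female Per2 read 5.94, 5.96, 4.00, 6.98 and 5.75 with PCN, against 4.54, 5.42, 4.00, 4.00 and 4.84 with vehicle. Its difference was 1.16 ± 0.42 (SE, adjusted p = 0.0746) and that of Nr1d2 0.71 ± 0.27 (SE, adjusted p = 0.0914), where 8.43% of probe sets passed. Per2 passed without any 1 of rats 1512 and 5513 (1.38 to 1.60, adjusted p = 0.00652 to 0.0378), and Nr1d2 without rat 1512 (0.87, adjusted p = 0.036). At unadjusted p under 0.05 the counts were 1 and 0 of 6 with phenobarbital in males and females, and 2 in each sex with PCN. Of all probe sets 16.7% and 9.97% reached that threshold with phenobarbital in males and females, and 17% and 18.6% with PCN.

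Por and Alas1, both also induced through CAR and PXR, passed in most comparisons of the 2 drugs with vehicle. With phenobarbital in males Alas1 rose by 1.60 ± 0.27 at 6 h and by 1.69 ± 0.25 at 5 days, and Por by 1.04 ± 0.27 and 1.21 ± 0.26. In females given phenobarbital Alas1 rose by 1.78 ± 0.25 at 24 h, and Por by 0.97 ± 0.26 at 24 h and 1.23 ± 0.26 at 5 days. With PCN in males Por rose by 1.33 ± 0.27, 1.06 ± 0.26 and 1.61 ± 0.26 at 6 h, 24 h and 5 days, and Alas1 by 2.02 ± 0.25 at 5 days. In females given PCN Alas1 rose by 1.46 ± 0.25 and Por by 1.11 ± 0.26 at 24 h, with 1.82 ± 0.25 and 2.16 ± 0.26 at 5 days.

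Wee1 differed with phenobarbital at 5 days by -0.59 ± 0.15 in males and -0.58 ± 0.15 in females, lower in both. Igfbp1 differed with PCN in females by -3.41 ± 0.89 at 24 h and -2.89 ± 0.89 at 5 days. Tat, an enzyme of tyrosine breakdown raised by glucocorticoids, differed in males at 24 h by -0.98 ± 0.19 with phenobarbital and -1.09 ± 0.19 with PCN, and the kinase gene Sgk1 by -0.87 ± 0.25 with phenobarbital. Fkbp4 rose by 1.06 ± 0.28 in males 6 h after PCN, and Dnajb1 fell by 0.63 ± 0.18 in females 24 h after it. The part of these genes in the clock values was not tested.

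The difference from vehicle with a drug is called its effect here. Whether that effect was unlike at 24 h and at 6 h was tested as the difference of the effects. For phenobarbital in females Per2 passed, at 2.06 ± 0.60 (SE, adjusted p = 0.0375), and so did Nr1d2, at -1.50 ± 0.38 (SE, adjusted p = 0.00953), where 2.91% of probe sets passed, 1.83% with a positive and 1.08% with a negative difference. Per2 differed from vehicle by -0.20 ± 0.42 at 24 h and by -2.26 ± 0.42 at 6 h. Nr1d2 differed by -0.82 ± 0.27 at 24 h and by 0.68 ± 0.27 at 6 h. The Per2 call was lost with a pseudocount of 1 (2.38, adjusted p = 0.578), with median scaling (2.03, adjusted p = 0.052), with only the groups compared in the fit (2.06, adjusted p = 0.127) and with rat 1003 included (2.05, adjusted p = 0.0593), and without any 1 of rats 1502, 1504, 1506, 1508, 1510, 4501, 4502, 4503, 4504, 4506, 4509 and 4510 (1.83 to 2.02, adjusted p = 0.0529 to 0.106). That of Nr1d2 was lost with only the groups compared in the fit (-1.50, adjusted p = 0.107), and without rat 4509 (-1.22, adjusted p = 0.0557). Hsph1 and Fkbp4 differed in the same test by 4.34 ± 0.57 and 2.84 ± 0.37, and Igfbp1, Pdk4 and Pck1 by -6.33 ± 1.26, -3.79 ± 0.82 and -3.14 ± 0.48. Dnajb1 differed by 1.40 ± 0.26 and Alas1 by 1.46 ± 0.36. Their part was not tested.

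No clock gene passed this test for phenobarbital in males (0.16% of probe sets, 0 of 6 at an unadjusted p under 0.05), for PCN in males (0.309%, 2 of 6) or for PCN in females (0.263%, 3 of 6). At that unadjusted threshold the shares of all probe sets were 6.01%, 6.82% and 10.9%, in the same order. For PCN in males Nr1d1 was at 1.51 ± 0.40 (SE, adjusted p = 0.0763), and it passed without any 1 of rats 1001, 5001 and 5006 (1.71 to 1.74, adjusted p = 0.0268 to 0.0393). In males Tat differed in this test by -1.19 ± 0.28 for phenobarbital and Alas1 by -1.73 ± 0.37 for PCN. For PCN in females Dbp was at 3.22 ± 1.26 (SE, adjusted p = 0.305), and it passed with only the groups compared in the fit (3.22, adjusted p = 0.0111).

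Over the 18 groups the levels of Dbp ordered as follows. The highest means were 10.29 ± 0.14 in females 24 h after PCN and 10.28 ± 0.36 in vehicle males at 6 h, which lay within each other's spread. Next came phenobarbital males at 6 h at 9.92 ± 0.49, vehicle females at 24 h at 9.69 ± 0.79 and PCN females at 5 days at 9.68 ± 0.59. Vehicle and phenobarbital females at 6 h followed at 9.64 ± 0.41 and 9.63 ± 0.54, and PCN males at 6 h at 9.19 ± 0.59. Neighbours among these did not differ beyond their spread. PCN females at 6 h were at 7.01 ± 0.65, amid groups of 24 h and 5 days whose SD was 1.21 to 2.86. The lowest were 4.39 ± 0.68 and 4.29 ± 0.65 in males 5 days and 24 h after phenobarbital, which did not differ beyond their spread. Bmal1 ran in nearly the reverse order, with its highest means of 6.28 ± 0.47 and 6.25 ± 0.89 in those same male groups. It was at 4.00 in every rat of 4 of the 6 groups at 6 h. Tef hardly moved, with group means between 7.94 and 8.36. Across the 18 group means, Pearson's r was -0.902 between Bmal1 and Dbp, 0.918 between Dbp and Nr1d2, and -0.875 between Bmal1 and Nr1d2, as a description of groups that share arrays and normalisation.

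The same opposition was seen among rats treated alike. Over the 60 rats killed 24 h after a dose, deviations from the group means of Bmal1 and Dbp correlated at r = -0.828 and rho = -0.847. Both had a permutation p of 1e-05, the smallest that 100000 resamples within groups can give (adjusted p = 3e-05 and 3.75e-05 over 15 pairs of genes). r was -0.809 without the 2 rats farthest from the median of Dbp, -0.807 in males and -0.857 in females (n = 30 each). Dbp also correlated with Nr1d2 (r = 0.763, rho = 0.786) and with Nr1d1 (r = 0.735, rho = 0.692), each with a permutation p of 1e-05. Bmal1 correlated with Nr1d1 at r = -0.7 and with Nr1d2 at r = -0.646 (permutation p = 1e-05 and 3e-05). The relation of Dbp to Per2 was r = 0.515 (permutation p = 0.00032), with 0.78 in males and 0.212 in females. Of the 15 pairs 10 passed by r and 12 by rho after adjustment. Per2 and Tef, at r = -0.0876 (permutation p = 0.567), did not. Pairs of other genes were not tested over these rats, so no share of all pairs stands beside that count. Over all 89 rats of the study Bmal1 was at its floor in 39 and Dbp in 13, rats of these 60 among them. Within the 29 rats at 6 h Bmal1 was mostly at its floor, and its r with Dbp was 0.0758. Scan or collection batches are not given in the labels, so no value within batches could be had.

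**Figure D2:**
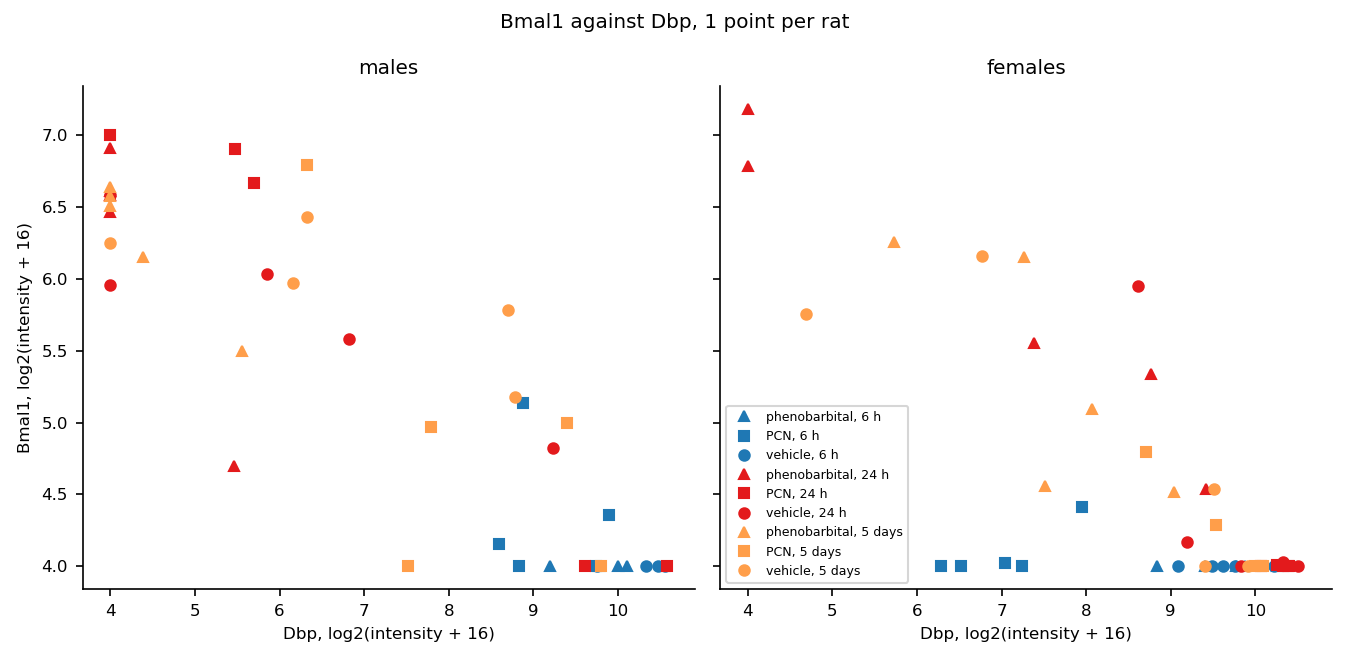
Bmal1 against Dbp, both as log2(intensity + 16), for each of 89 rats of the phenobarbital and PCN study, males left and females right. Colour gives the time and symbol the treatment. At 6 h, rats given vehicle or phenobarbital lie at the floor of Bmal1 at 4.00, and those given PCN between 4.00 and 5.14. Rats killed 24 h after a dose spread from high Dbp with low Bmal1 to high Bmal1 with Dbp at 4.00.

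By Pearson's r over the same 18 group means, the genes most like Dbp were Nr1d2 (0.918), Hsd17b2 (0.855), Sh2b3 (0.805), Nfia (0.786) and Abhd13 (0.776). Hsd17b2, an enzyme that inactivates sex steroids, ranged between group means of 7.96 and 11.61. Those most like Bmal1 were Svil (0.906), Atp2b2 (0.903), Chka (0.901), Tjp1 (0.881) and Strn4 (0.868). Chka, the choline kinase that starts phosphatidylcholine synthesis, ranged between 6.18 and 8.03.

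Between the D3T and control diets 5 of the 6 clock genes of these females passed, where 12.6% of probe sets did. The groups did not overlap for any of these 5 passing genes, a count that was not taken over all probe sets. The labels give no hour of killing, so diet and hour cannot be told apart. Of the 5 genes 2 rose and 3 fell, and of all probe sets 5.22% rose and 7.33% fell. Per2 read 4.28, 4.51, 4.09 and 4.00 on D3T, against 5.57, 6.18, 5.66 and 6.05 on control diet, and fell by 1.65 ± 0.18 (SE, adjusted p = 0.00363). Nr1d2 read 6.32, 6.90, 6.48 and 6.24 on D3T, against 7.43, 7.77, 7.58 and 8.01 on control diet, and fell by 1.22 ± 0.19 (SE, adjusted p = 0.0104). Its relative Nr1d1 went the other way. Nr1d1 read 8.69, 8.83, 9.14 and 8.96 on D3T, against 8.49, 8.13, 8.27 and 8.47 on control diet, and rose by 0.56 ± 0.13 (SE, adjusted p = 0.0334). Tef read 8.22, 7.98, 8.49 and 8.48 on D3T, against 7.91, 7.80, 7.57 and 7.60 on control diet, and rose by 0.57 ± 0.14 (SE, adjusted p = 0.0462). Dbp read 9.70, 9.63, 9.50 and 9.67 on D3T, against 9.83, 9.97, 9.85 and 9.92 on control diet, and fell by 0.27 ± 0.05 (SE, adjusted p = 0.0228). That change was small beside its range in the phenobarbital and PCN study, and the other Dbp probe set J03179_at, at 0.08 ± 0.17, did not pass. Bmal1 was near the floor on both diets, averaging 4.66 ± 0.53 on D3T and 4.58 ± 0.67 on control diet (SD, n = 4), a difference of 0.08 ± 0.41 (SE, adjusted p = 1).

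The calls of Per2 and Nr1d2 held in every fit without 1 rat. With the shared rat number as a block in limma only Per2 passed. Adjusted p was then 0.0647 for Nr1d2, 0.0794 for Dbp, 0.133 for Nr1d1 and 0.193 for Tef. The median clock gene differed by -0.10 on D3T, and the median of all probe sets was 0.00. Tef was lost with median scaling (0.47, adjusted p = 0.0703) and without any 1 of control diet rat 1, control diet rat 2, control diet rat 3, control diet rat 4, D3T diet rat 1, D3T diet rat 3 and D3T diet rat 4 (0.51 to 0.63, adjusted p = 0.0561 to 0.112). Nr1d1 was lost with median scaling (0.44, adjusted p = 0.127) and without any 1 of control diet rat 2, control diet rat 3, control diet rat 4, D3T diet rat 2, D3T diet rat 3 and D3T diet rat 4 (0.49 to 0.59, adjusted p = 0.0546 to 0.09). Dbp was lost with median scaling (-0.28, adjusted p = 0.0897) and with the lowest 33.3% of probe sets left out (-0.27, adjusted p = 0.105), and without any 1 of control diet rat 2, control diet rat 3, control diet rat 4 and D3T diet rat 2 (-0.29 to -0.24, adjusted p = 0.0502 to 0.0613). None of 7 other clock genes passed. Por fell by 0.86 ± 0.11, Igfbp1 by 1.52 ± 0.34 and the liver transcription factor Cebpb by 0.55 ± 0.06. Of 3 measured macrophage markers 2 fell, with summed intensity 460 to 582.9 on D3T and 826.5 to 1013 on control diet. Of 4 endothelium and 5 stellate markers 1 each fell, with sums of 75.93 to 174.3 and 600.5 to 892.9 on D3T, against 230.8 to 268.7 and 919.4 to 1182 on control diet. The stellate marker Des was at the floor on all 8 arrays, and Csf1r of the macrophages and Vwf of the endothelium on 5 each. Of 5 hepatocyte markers 2 fell, with sums of 31400 to 32430 on D3T and 33880 to 34870 on control diet. The part of these cell types in the clock values was not tested.

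PFOA and PFOS were set against the same 3 vehicle males, at unequal doses, so their values are given side by side and not compared. With both compounds the activators Bmal1 and Npas2 were low and Dbp was high. Bmal1 read 5.59, 5.43 and 5.30 with PFOA and 5.05, 4.95 and 5.21 with PFOS, against 8.36, 8.23 and 8.19 with vehicle. No treated rat came near a vehicle rat. Bmal1 fell by 2.82 ± 0.10 (SE, adjusted p = 0.000119) with PFOA and fell by 3.19 ± 0.10 (adjusted p = 0.000145) with PFOS. Npas2, a partner of BMAL1 that can stand in for CLOCK, read 4.15, 4.49 and 4.00 with PFOA and 4.00, 5.13 and 4.00 with PFOS, against 8.26, 8.11 and 8.67 with vehicle. In 3 of the 6 treated rats it was at the floor. Npas2 fell by 4.13 ± 0.34 (SE, adjusted p = 0.00283) with PFOA and fell by 3.97 ± 0.34 (adjusted p = 0.0154) with PFOS. Clock itself read 7.96, 7.87 and 8.46 with PFOA and 7.19, 7.90 and 7.72 with PFOS, against 8.86, 8.93 and 9.12 with vehicle. On this brightest Clock probe set both treated groups lay wholly below vehicle. The differences of -0.87 ± 0.23 (SE, adjusted p = 0.0797) and -1.37 ± 0.23 (SE, adjusted p = 0.0729) did not pass. Another Clock probe set averaged 6.52 with PFOA and 6.19 with PFOS, against 7.73 with vehicle. A dimmer Clock probe set averaged 5.46 with PFOA and 5.01 with PFOS, against 5.46 with vehicle, and so was not lower with PFOA. The dimmest was at the floor in all treated rats.

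Dbp read 9.88, 10.07 and 9.87 with PFOA and 10.02, 10.21 and 10.27 with PFOS, against 5.75, 6.20 and 6.06 with vehicle. It had the most positive of the 10 differences with both compounds, and the groups were far apart. Dbp rose by 3.94 ± 0.13 (SE, adjusted p = 0.000105) with PFOA and by 4.16 ± 0.13 (adjusted p = 0.000145) with PFOS. Tef read 8.25, 7.34 and 7.51 with PFOA and 9.61, 8.89 and 8.13 with PFOS, against 6.58, 7.33 and 7.26 with vehicle. The differences of 0.64 ± 0.44 (SE, adjusted p = 0.505) and 1.82 ± 0.44 (SE, adjusted p = 0.16) did not pass, while another probe set of Tef rose by 0.61 ± 0.09 (SE, adjusted p = 0.0145) with PFOA and stood at 0.60 ± 0.09 (SE, adjusted p = 0.0545) with PFOS.

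Among the repressors Per2 read 8.92, 9.64 and 9.82 with PFOA and 8.99, 9.19 and 9.83 with PFOS, against 6.52, 7.69 and 5.95 with vehicle. All treated rats were above all vehicle rats, and Per2 rose by 2.74 ± 0.49 (SE, adjusted p = 0.0274) with PFOA. With PFOS the difference of 2.62 ± 0.49 (SE, adjusted p = 0.0903) did not pass. Per1 read 6.14, 4.00 and 6.88 with PFOA and 6.86, 7.44 and 6.95 with PFOS, against 4.00, 6.59 and 5.80 with vehicle, with differences of 0.21 ± 0.90 and 1.62 ± 0.90 that did not pass. Per3 differed by 0.05 ± 0.54 and -0.41 ± 0.54. Nr1d2 read 9.99, 9.76 and 10.19 with PFOA and 10.07, 10.44 and 10.48 with PFOS, against 8.63, 9.30 and 9.43 with vehicle. It was higher in every treated rat, at 0.86 ± 0.24 (SE, adjusted p = 0.0922) and 1.21 ± 0.24 (SE, adjusted p = 0.0999), and did not pass. Nr1d1 differed by -0.22 ± 0.49 and -0.10 ± 0.49, within the spread of the vehicle rats.

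Of the 10 genes 4 passed with PFOA, 2 higher and 2 lower, where 6.05% of 31042 probe sets passed, 3.23% higher and 2.83% lower. With PFOS 3 passed, 1 higher and 2 lower, where 0.461% did, 0.283% higher and 0.177% lower. The median of the 10 differences was 0.13 with PFOA and 0.56 with PFOS, and that of all probe sets 0.00 in both. The Per2 call with PFOA was lost with only the groups compared in the fit (2.74, adjusted p = 0.0694), and without any 1 of the PFOA rats at 9.64 and 9.82 and the vehicle rats at 6.52 and 5.95 (2.37 to 2.66, adjusted p = 0.0722 to 0.0918). Npas2 with PFOS was lost with a pseudocount of 1 (-6.84, adjusted p = 0.104) and with only the groups compared in the fit (-3.97, adjusted p = 0.0614), and without 1 of the PFOS rats at the floor (-3.77, adjusted p = 0.051). Clock and Per2 with PFOS passed with the lowest 33.3% of probe sets left out (-1.37 and 2.62, adjusted p = 0.0408 and 0.0298). Bmal1 and Dbp passed in all fits, with each compound.

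Of 12 other clock genes Prkaa1, a subunit of the AMP kinase, rose with PFOA by 1.58 ± 0.17, and none passed with PFOS. Among 9 clock outputs Por rose by 3.74 ± 0.51 and Alas1 by 2.44 ± 0.48 with PFOA, and Insig2, which restrains sterol synthesis, fell by 1.96 ± 0.30. With PFOS Insig2 fell by 2.19 ± 0.30 and Nampt, the enzyme of NAD salvage, rose by 2.17 ± 0.22. Dnajb1 and Hsph1 rose with PFOA by 2.70 ± 0.30 and 2.26 ± 0.34, the cold-inducible Rbm3 by 1.64 ± 0.31 and Pdk4 by 2.35 ± 0.27. Of 6 endothelium and 6 stellate markers 2 each fell with PFOA, with summed intensity 2753 to 3190 and 2720 to 2967, against 4147 to 5616 and 4057 to 5299 with vehicle. None of either list passed with PFOS, with sums of 3206 to 4306 and 4179 to 5184, and no marker of the 2 lists was at the floor. Of 3 bile duct markers 1 rose with PFOA, with sums of 715 to 833.1 against 286.3 to 381.4 with vehicle. The median log2 ratio of 3' to 5' Gapdh control probe sets, a sign of RNA integrity, was 0.54 with PFOA, 1.26 with PFOS and 1.03 with vehicle. Its ranges of 0.54 to 1.33, 1.12 to 1.33 and 0.48 to 1.30 overlapped. The part of these in the clock values was not tested. The labels give no hour of killing for these rats, so treatment and hour cannot be told apart.

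**Figure D3:**
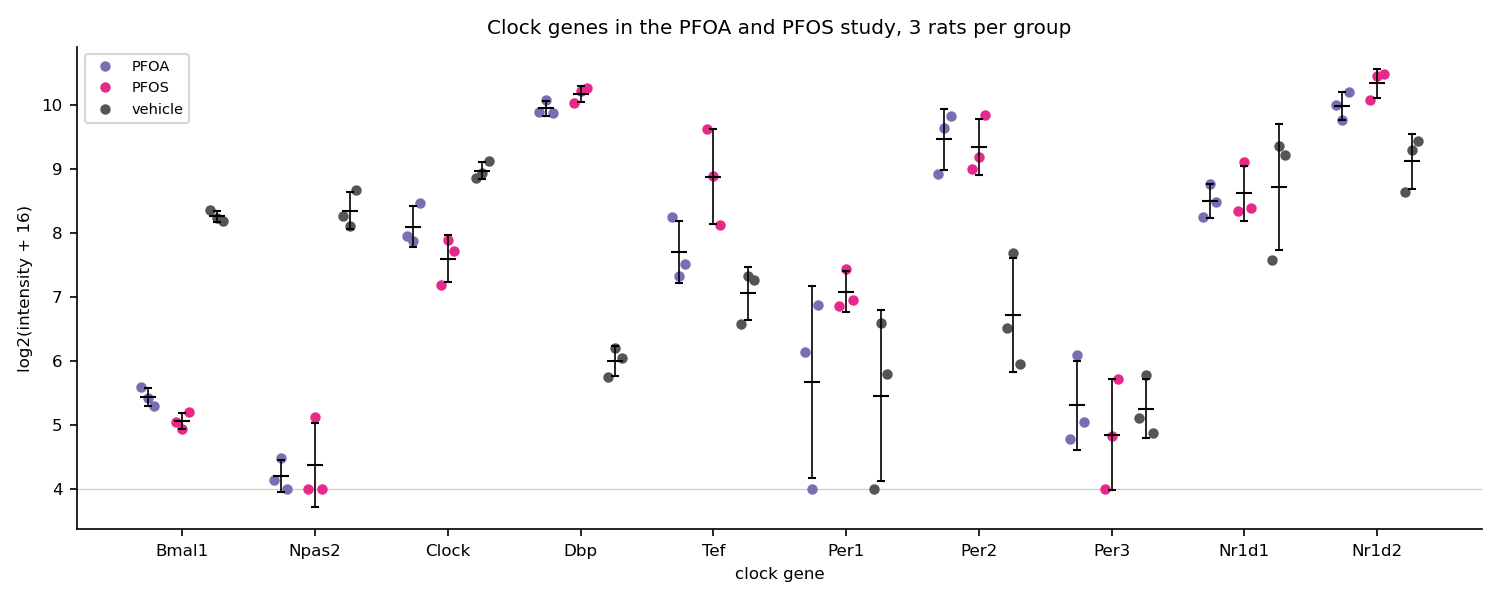
log2(intensity + 16) of the 10 clock genes in the 9 male rats given PFOA, PFOS or vehicle (points, 3 rats per group), with mean and SD as bars and the floor of 4.00 as a grey line. Bmal1 and Npas2 lie far below vehicle and Dbp far above it with both compounds.

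In females given PFOS for 3 weeks no probe set passed with 2 rats a group (0% of 8740), while 421 (4.82%) had an unadjusted p under 0.05, 1 of the 6 clock genes among them. That gene was Nr1d2, at 5.85 and 5.75 with PFOS, against 4.92 and 4.96 with vehicle, a difference of 0.86 ± 0.05 (SE, adjusted p = 0.304). Nr1d1 read 7.22 and 7.73 with PFOS, against 6.55 and 6.76 with vehicle, a difference of 0.82 ± 0.25 (SE, adjusted p = 1). Its other probe set M25804_at was at 2.22 ± 0.23 (SE, adjusted p = 0.53). Dbp, read here from J03179_at, was at the floor in all 4 rats, and Bmal1 read 5.92 and 7.39 with PFOS, against 6.72 and 7.09 with vehicle. Per2 was 4.00 to 4.27 in all of them, and Tef differed by 0.10 ± 0.12.

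With Wy-14643 none of 9 clock genes passed at 1, 3 or 7 days, where 11.5%, 10.8% and 13.1% of 15866 probe sets did. None had an unadjusted p under 0.05 at any of these times, where 24.1%, 24.7% and 25.6% of all probe sets did. Bmal1 read 8.28, 8.09 and 8.12 after 1 day with Wy-14643, against 8.53, 8.26 and 8.65 with vehicle. After 3 days it read 8.35, 8.26 and 8.04 with Wy-14643, against 8.20, 8.14 and 8.62 with vehicle, and after 7 days 8.77, 8.35 and 8.45, against 8.47, 8.39 and 8.14. All 18 values lay between 8.04 and 8.77, with differences of -0.32 ± 0.15, -0.10 ± 0.15 and 0.19 ± 0.15. The 95% intervals were -0.65 to 0.01, -0.44 to 0.23 and -0.14 to 0.52. Clock was as steady, between 8.19 and 8.84 on all 18 arrays. Dbp was at the floor in 14 of 18 rats and at most 5.21, and Per1 was at the floor in all 18. Per2 spread from 4.00 to 7.72, with differences of -0.31 ± 0.95, -0.68 ± 0.95 and -0.46 ± 0.95 at 1, 3 and 7 days. Nr1d1 differed by 0.28 ± 0.41, 0.58 ± 0.41 and -0.00 ± 0.41, and Nr1d2 by 0.72 ± 0.38, 0.30 ± 0.38 and 0.28 ± 0.38. Per3 differed by -0.89 ± 0.47, -0.66 ± 0.47 and -0.37 ± 0.47, and Tef by -0.31 ± 0.43, -0.43 ± 0.43 and -0.10 ± 0.43.

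Of 10 other clock genes Timeless rose by 0.97 ± 0.29 at 1 day and by 1.23 ± 0.29 at 7 days. Prkaa1 rose by 0.46 ± 0.12 and 0.71 ± 0.12 at 3 and 7 days, and Bhlhe41, a repressor of E-box genes, fell by 1.11 ± 0.26 at 3 days. Among clock outputs Por rose by 1.38 ± 0.27 at 1 day, and Alas1 by 0.65 ± 0.17 and 0.58 ± 0.17 at 1 and 3 days. Pdk4, a target of PPARα, rose by 1.61 ± 0.47 and 1.77 ± 0.47 at 3 and 7 days, and the glucocorticoid receptor gene Nr3c1 fell by 0.63 ± 0.15 at 1 day and fell by 0.53 ± 0.15 at 7 days. Of the heat and cold shock genes Fkbp4 rose by 0.38 ± 0.07 and 0.24 ± 0.07 at 1 and 7 days, and Hsph1 by 0.62 ± 0.14 at 7 days. The log2 ratio of 3' to 5' Gapdh was lower with Wy-14643 than with vehicle, without overlap. At 1, 3 and 7 days it ran from 0.63 to 0.74, 0.50 to 0.62 and 0.51 to 0.65 with Wy-14643. With vehicle it ran from 0.78 to 0.90, 0.82 to 0.94 and 0.82 to 0.93. The part of this ratio in the clock values was not tested.

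**Figure D4:**
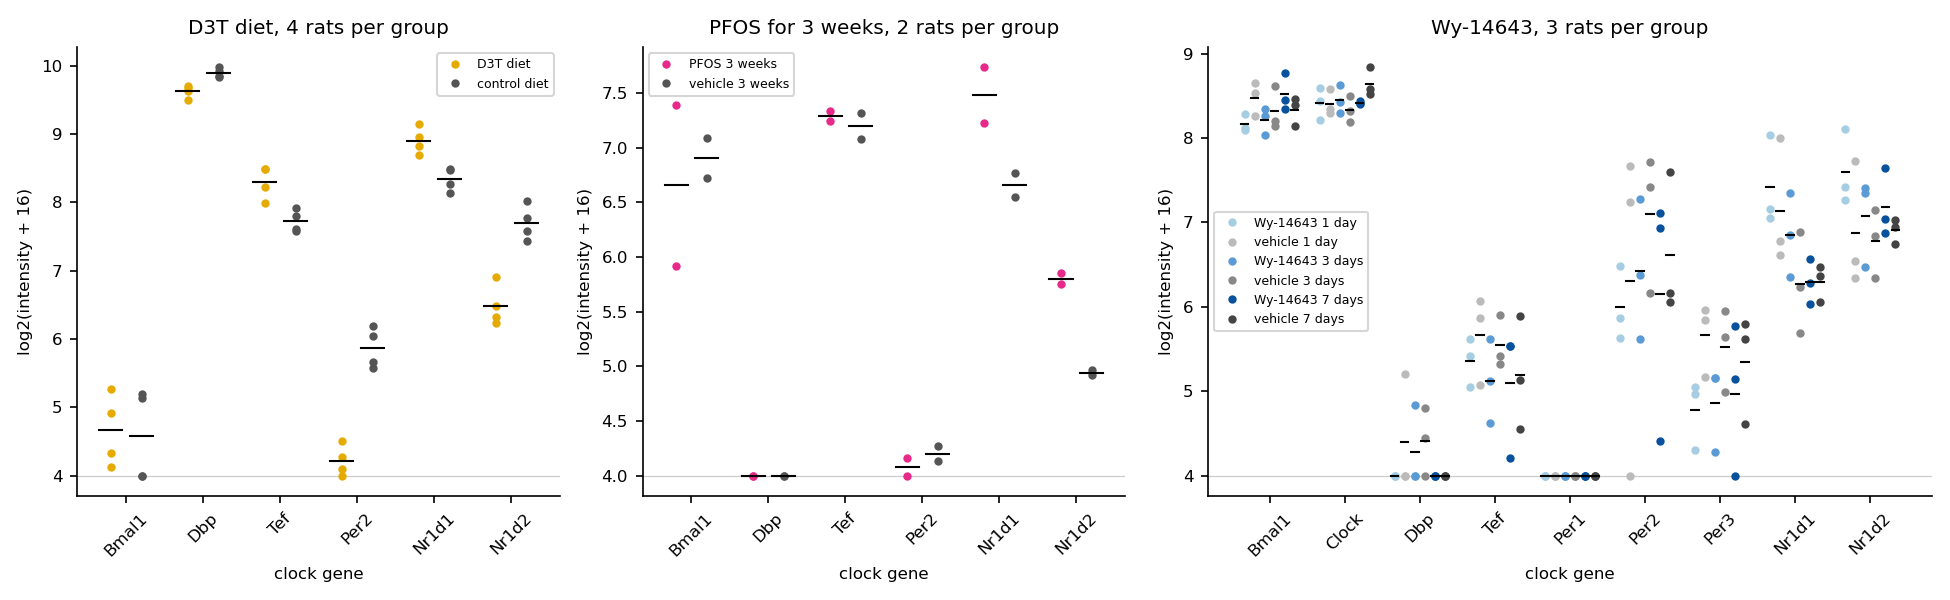
log2(intensity + 16) of the clock genes in the D3T study (left, 4 rats per group), in females given PFOS for 3 weeks (middle, 2 per group) and in the Wy-14643 study (right, 3 per group). Points are rats, black lines are group means and the grey line is the floor of 4.00. Per2 and Nr1d2 lie lower on D3T than on control diet, Dbp lies at the floor in all 4 rats of the 3-week study, and Bmal1 and Clock stay between 8.04 and 8.84 in the Wy-14643 study.

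Levels were normalised within a study and are not tested across studies. The map of all treated minus control differences shows passing clock genes in 6 of 19 comparisons. Of all probe sets 0.461% (PFOS) to 12.6% (D3T) passed in those 6, and 0% to 13.1% in the others. With only the groups compared in the fit, the clock gene count was 0 in PCN males at 6 h and in phenobarbital females at 6 h and 24 h.

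**Figure D5:**
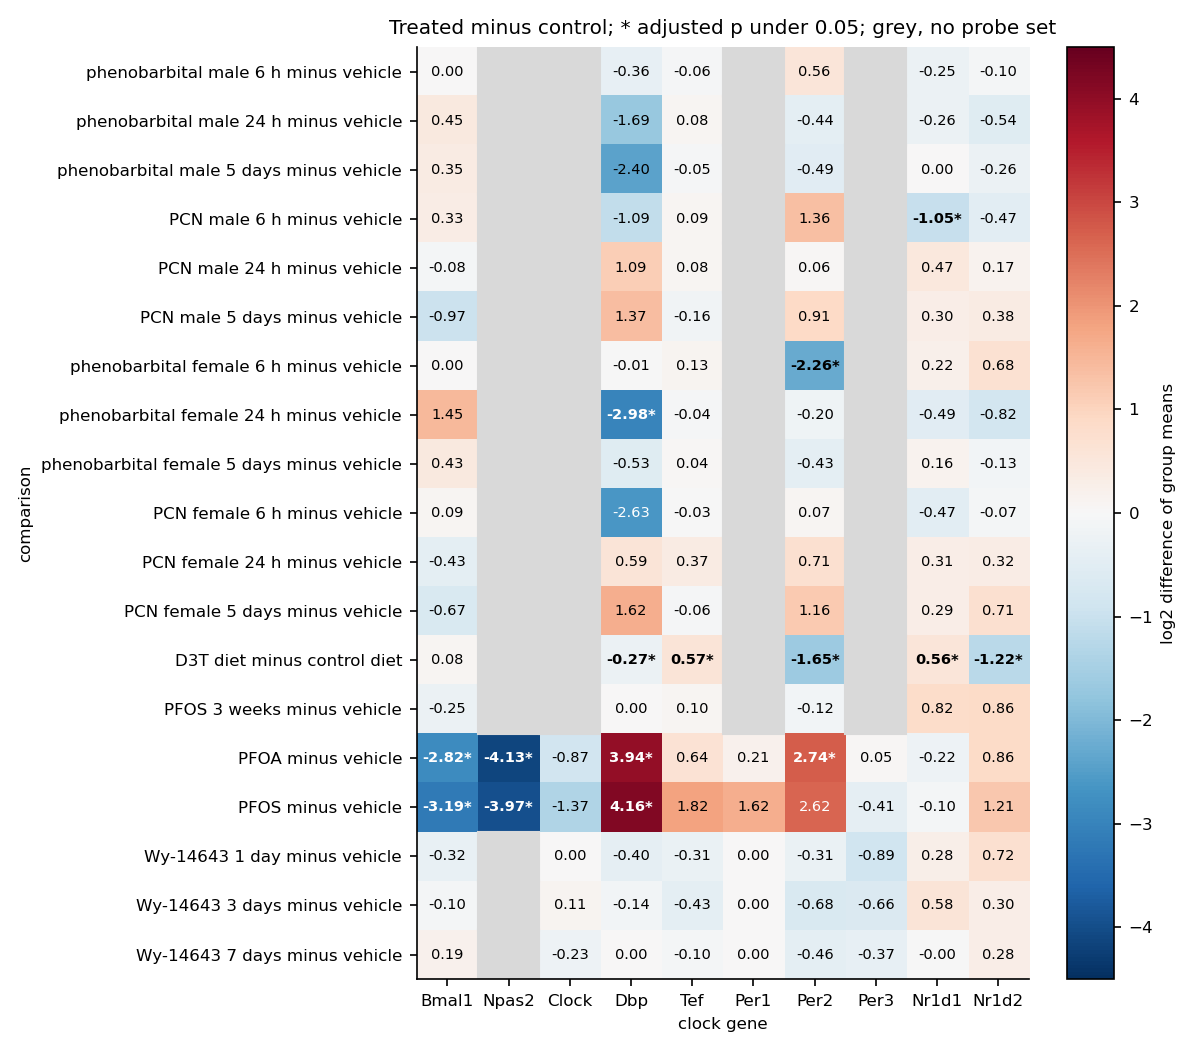
log2 difference of group means, treated minus control, for the 10 clock genes (columns) in 19 comparisons (rows), with the value in each cell. Red is higher and blue lower with treatment, a star marks an adjusted p under 0.05 and grey a gene with no probe set. In the columns of Bmal1 and Dbp the deepest colours are those of PFOA and PFOS. Npas2 has a value in those rows alone, and the rows of Wy-14643 hold no star.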

How the data were processed

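Liver RNA of 129 rats was measured on 3 Affymetrix array types. The authors deposited 1 linear intensity per probe set and array, per the deposited values, some of them negative. The software behind these intensities is not given in the sources used here. The members and gene lists were chosen with earlier results of these data known. Negative values were set to 0, 16 was added and log2 taken. Arrays were quantile normalised within a study, except in the 3-week PFOS study, whose array medians lay within 0.5. Control probe sets were left out. Group means were fitted in limma 3.58.1 (R 4.3.3), 1 fit per study, giving 28 comparisons, with moderated tests and Benjamini-Hochberg adjustment over 8740, 31042 or 15866 probe sets. The fit was tested on simulated data. The labels name single rats, and the p-values measure the spread between these rats.

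The platform annotation gave 1 gene to 7018, 20832 and 12789 probe sets of the array types with 8799, 31099 and 15923 probe sets, several to 308, 436 and 312, and none to 1473, 9831 and 2822. Probe sets with several genes were not used. The text names all 10 clock genes, other clock genes that passed, and up to 3 passing genes each of the clock outputs, the glucocorticoid and fasting genes and the heat and cold shock genes. D3T and control rats share numbers, but deviations of same-numbered rats correlated at 0.266, -0.0783, -0.095 and -0.205, so the numbers were not taken to pair them. Alternatives were pseudocounts of 1 and 64, median scaling (quantile for the 3-week study), leaving out the lowest 33.3% of probe sets, fitting only the groups compared, including rat 1003, the D3T number as a block, and leaving out each rat. The number of arrays limits the precision.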

Additional observations from a re-analysis of the deposited data

Results flagged for a closer look

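A rat lay far from the other rats of its group in 15 of 116 combinations of gene and group tested. Chance flags about 1 in 20 groups of values that spread freely, a rate that does not hold for values at the floor. Of the 15 groups 8 held a rat at the floor of 4.00, and in 4 every other rat was there, so that any value above the floor stood apart. Bmal1 was highest at 4.01 in rat 5507 (PCN females, 24 h), at 4.41 in rat 5503 (PCN females, 6 h) and at 5.95 in rat 1508 (vehicle females, 24 h). It was lowest at 4.70 in rat 4010 (phenobarbital males, 24 h), the rat with the highest Dbp of that group, 5.46. Dbp was highest at 5.56 in rat 4015 (phenobarbital males, 5 days). Per2 was highest at 8.76 in rat 5503, at 4.67 in rat 4513 (phenobarbital females, 5 days) and at 7.53 in rat 4505 (phenobarbital females, 6 h). It was also highest at 4.94 in rat 4009 (phenobarbital males, 24 h) and at 4.45 in rat 4014 (phenobarbital males, 5 days). Rat 4006 (phenobarbital males, 24 h) was lowest for Nr1d1 at 6.85 and for Nr1d2 at 5.11. Rat 5503 was highest for Nr1d2 at 7.87, and rat 1511 (vehicle females, 5 days) for Tef at 8.54.

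The effect of phenobarbital in females differed between 24 h and 6 h by a tested difference of 2.06 for Per2 and -1.50 for Nr1d2 (limma, adjusted p = 0.0375 and 0.00953).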

How the results depend on the processing

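No clock gene call reversed. Of 160 counts of clock genes past the threshold under an alternative, 138 stayed within 1.5 times and 22 moved. With a pseudocount of 1 the count was 0 for phenobarbital females at 6 h, 1 for vehicle males at 24 h against 6 h, and 1 for the phenobarbital effect in females. With a pseudocount of 64 it was 2 for PCN males and 1 for PCN females at 6 h. Median scaling gave 0 for PCN males at 6 h, 1 for the phenobarbital effect in females and 2 for D3T. Without the lowest 33.3% of probe sets it was 3 for phenobarbital females at 24 h and 5 for PFOS. With only the groups compared it was 0 for PCN males at 6 h, phenobarbital females at 6 h and 24 h, vehicle males and the phenobarbital effect in females, and 1 for PCN females at 6 h and 24 h and the PCN effect in females. With rat 1003 it was 0 for PCN males at 6 h and phenobarbital females at 24 h, and 1 for the phenobarbital effect in females. With the D3T replicate number as a block 1 clock gene (Per2) passed in place of 5, with Nr1d2 at an adjusted p of 0.0647, and 358 probe sets in place of 1097. Without 1 rat at a time the count ranged from 0 to 2 for PCN males at 6 h, PCN females at 5 days and the phenobarbital effect in females, 0 to 3 for phenobarbital females at 24 h and vehicle males, and 0 to 1 for phenobarbital males at 5 days and the PCN effect in males. It ranged from 1 to 2 for vehicle females, 2 to 4 for D3T, 3 to 4 for PFOA and 2 to 3 for PFOS. Of single-gene results 11 gained and 28 lost their call under an alternative, and 992 kept their side of the threshold. Counts over all probe sets moved by over 1.5 times as follows. With a pseudocount of 1 they were 17 against 27 (PCN male effect, 24 h minus 6 h), 17 against 0 (PFOS 3 weeks). With median scaling they were 132 against 202 (phenobarbital male 24 h), 20 against 35 (vehicle male 24 h minus 6 h), 76 against 140 (vehicle male 5 days minus 24 h), 25 against 56 (vehicle female 5 days minus 24 h), 4 against 14 (phenobarbital male effect, 24 h minus 6 h), 15 against 27 (PCN male effect, 24 h minus 6 h), 1184 against 1879 (PFOA). Without the lowest 33.3% they were 25 against 0 (PFOS 3 weeks). With only the groups compared they were 18 against 64 (phenobarbital male 6 h), 116 against 202 (phenobarbital male 24 h), 114 against 429 (phenobarbital male 5 days), 4 against 164 (PCN male 6 h), 8 against 50 (PCN male 24 h), 175 against 417 (PCN male 5 days), 27 against 228 (phenobarbital female 6 h), 154 against 353 (phenobarbital female 24 h), 85 against 216 (phenobarbital female 5 days), 89 against 196 (PCN female 6 h), 428 against 737 (PCN female 5 days), 0 against 35 (vehicle male 24 h minus 6 h), 25 against 140 (vehicle male 5 days minus 24 h), 0 against 56 (vehicle female 5 days minus 24 h), 0 against 14 (phenobarbital male effect, 24 h minus 6 h), 0 against 27 (PCN male effect, 24 h minus 6 h), 75 against 143 (PFOS), 736 against 1710 (Wy-14643 3 days), 970 against 2073 (Wy-14643 7 days). With rat 1003 they were 269 against 64 (phenobarbital male 6 h), 133 against 202 (phenobarbital male 24 h), 283 against 429 (phenobarbital male 5 days), 934 against 164 (PCN male 6 h), 122 against 35 (vehicle male 24 h minus 6 h), 76 against 140 (vehicle male 5 days minus 24 h), 24 against 56 (vehicle female 5 days minus 24 h), 167 against 254 (phenobarbital female effect, 24 h minus 6 h). Median scaling moved the share of calls that were higher to 96.3% from 84.4% (phenobarbital males, 6 h), 62.7% from 52.2% (phenobarbital males, 5 days), 82.1%, 94% and 74.8% from 69.5%, 82% and 61.4% (PCN males, 6 h, 24 h and 5 days), 73.2% and 69.1% from 57.2% and 58.8% (phenobarbital females, 24 h and 5 days), 50% from 28.6% (phenobarbital effect in males), 77.8% from 61.5% (PFOS) and 67.2% from 51.8% (Wy-14643, 1 day). The cause of these changes was not tested. Values at the floor of 4.00 have no order.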
